A study of Homo sapiens with 6 samples.

Results

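Notch pathway genes were followed in MDA-MB-231, an established human triple-negative breast cancer cell line of mesenchymal character, after knockdown of the zinc finger transcription factor ZNF148. The members are the receptors NOTCH1, NOTCH2 and NOTCH3, the ligands JAG1 and JAG2, the nuclear proteins RBPJ and MAML2, and the target genes HES1, HES4 and HEY1. The 10 genes were chosen by symbol and occupy 11 rows (RBPJ has 2) of a table of 24108 rows. Total RNA was sequenced from 3 shCtr samples, which carried an LKO hairpin directed at luciferase, and 3 shZNF148 samples, which carried a hairpin directed at ZNF148. Both groups were transduced for 48 h and then kept for 24 h in 0.5 µg/ml puromycin, so the controls share the vector and the selection. All results rest on 1 cell line, and the labels do not say whether the 3 samples of a group were separate cultures, so p-values measure the spread between these samples.

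Notch receptors are membrane proteins that bind Jagged or Delta ligands on a neighbouring cell. Binding lets ADAM proteases and then gamma-secretase cut the receptor, and the freed intracellular domain joins the DNA-binding protein RBPJ and a Mastermind coactivator (the MAML family) at target genes. HES and HEY genes, which encode basic helix-loop-helix repressors, are the classical targets. In breast tissue the pathway takes part in luminal cell fate and in stem cell traits.

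ZNF148 was measured at 3.72, 4.36 and 4.30 FPKM (a read density corrected for transcript length and library size) in shCtr and at 0.914, 0.282 and 0.834 FPKM in shZNF148, so that the knockdown mean was 16.4% of that in shCtr (limma, adjusted p = 0.0099). Of 5 mesenchymal markers checked, VIM (1510 to 1840 FPKM) was the highest, and CD44, EGFR and AXL fell in shZNF148 (log2 differences -0.46, -0.61 and -0.29, limma adjusted p = 0.0185, 0.02 and 0.0364). The sum of all 5, most of it VIM, was 2960 to 3080 FPKM in shCtr and 2460 to 2540 FPKM in shZNF148. The part of this fall in the Notch results was not tested. ESR1 was listed at 0 in all 6 samples and PGR was at most 0.083 FPKM, while the ERBB2 row, which is joined with MIR4728, ran from 20.1 to 126 FPKM with the high values in replicate 2 of both groups. Of the epithelial markers checked, EPCAM was at 8.0 to 11.1 FPKM and CDH1 at 0.131 to 0.491 FPKM. Of the basal keratins, KRT17 was high (216 to 286 FPKM), KRT14 was at most 0.0701 FPKM and KRT5 was listed at 0 throughout. Markers of other cells summed to 0.0241 to 2.93 FPKM in shCtr, the highest through DCN in 1 sample, and to 0.0467 to 0.131 FPKM in shZNF148. The table gives no counts, so absolute depth is unknown. Relative depth, estimated from the steps between low FPKM values, ran from 0.806 in shZNF148 replicate 3 to 1.13 in shZNF148 replicate 1.

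The members spanned a wide range of levels. In shCtr the order by mean FPKM, which is scaled to transcript length, was NOTCH2 (55.1 ± 1.86, SD, n = 3), RBPJ (32.4 ± 2.69), JAG2 in a row joined with NUDT14 (21.1 ± 1.24), MAML2 (15.0 ± 0.61), NOTCH1 (11.2 ± 0.416), JAG1 (5.90 ± 0.961), HES1 (5.86 ± 1.73), HES4 (5.37 ± 1.10), NOTCH3 (1.01 ± 0.144) and HEY1 (0.221 ± 0.052). The samples of neighbours in this order did not overlap, except for JAG1 with HES1 and HES1 with HES4. RBPJ is placed in both groups by the higher of its 2 rows. In shZNF148 the same 5 genes led, but that RBPJ row overlapped JAG2 and JAG2 overlapped MAML2. The 2 RBPJ rows added together (33.8, 24.2 and 31.7 FPKM in shZNF148) did not overlap the JAG2 row (at most 19.6 FPKM). HES1, HES4 and JAG1, which overlapped in shCtr, were separated in shZNF148, with HES1 above JAG1 and JAG1 above HES4. NOTCH3 moved from above HEY1 to a level that overlapped it.

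**Figure D1:**
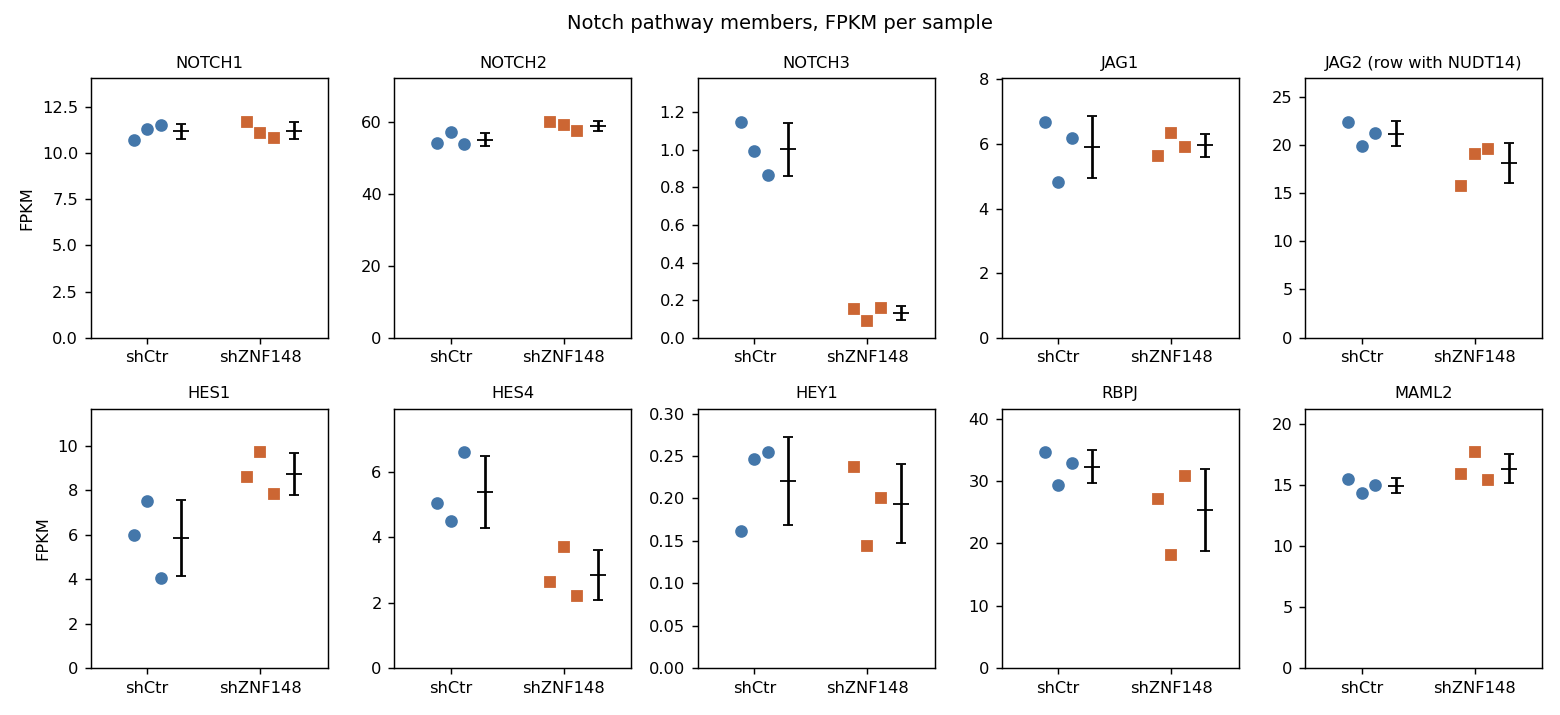
FPKM of each member in each sample (circles, 3 shCtr; squares, 3 shZNF148), with the group mean ± SD beside the points and a separate vertical axis from 0 for each gene; RBPJ is its higher row. NOTCH3 lies at 0.867 to 1.15 FPKM in shCtr and at or below 0.159 FPKM in shZNF148, and the HES1 and HES4 groups separate in opposite directions.

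Of the 10 members, 8 averaged 1 FPKM or more across all 6 samples and were tested with limma on log2(FPKM + 1) among 11777 rows. HES4 passed at a Benjamini-Hochberg adjusted p under 0.05 (1 of 8, 12.5%), and it was lower in shZNF148. Over all tested rows 13.6% passed, 8.13% lower and 5.46% higher, and 5.49% passed with a change of more than 1.5-fold, as HES4 did. The 2 groups did not overlap in 4 of the 8 members (50.0%), with 2 higher and 2 lower, against 41.0% of all tested rows. The median log2 difference was 0.02 over the 8 members and 0.006 over all tested rows. The members' share of calls was thus near that of the table as a whole.

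**Figure D2:**
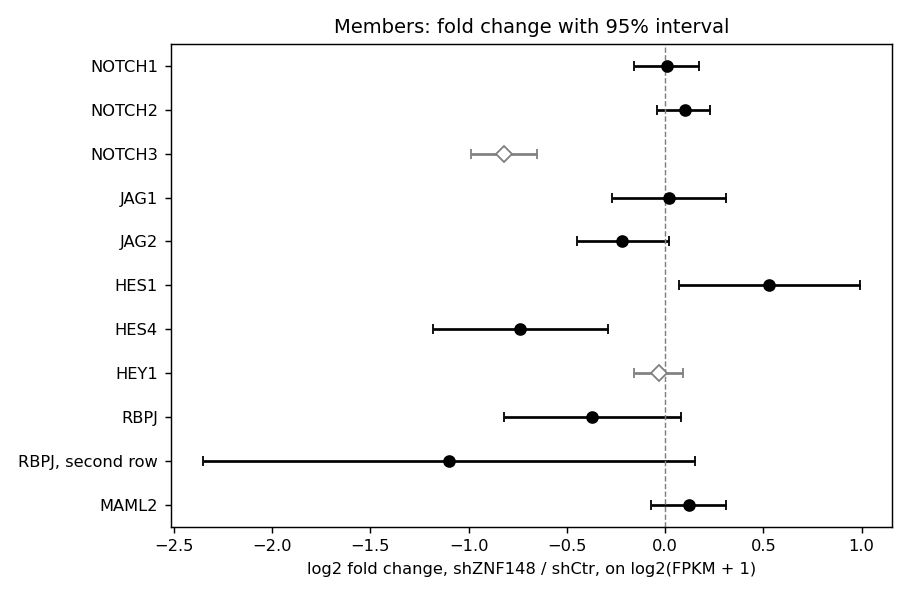
Log2 fold change (shZNF148 over shCtr, on the log2(FPKM + 1) scale) of each member row with its 95% confidence interval; filled circles are tested rows, and open diamonds are NOTCH3 and HEY1, fitted without the filter on low values. The HES4 interval runs from -1.18 to -0.29 and the NOTCH3 interval from -0.99 to -0.65, while the NOTCH1, NOTCH2 and JAG1 intervals include 0.

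The receptors differed in their response. NOTCH2 and NOTCH1, which carried nearly all receptor RNA, did not pass the test, whereas NOTCH3, the least abundant, was at 13.3% of its control mean. NOTCH3 (chr19:15159038-15200995, minus strand; here and below GENCODE release 44 on GRCh38) was measured at 1.15, 0.994 and 0.867 FPKM in shCtr and at 0.151, 0.0893 and 0.159 FPKM in shZNF148. All shZNF148 samples were below all shCtr samples. Its mean over the 6 samples, 0.569 FPKM, was under the 1 FPKM filter, so it was not in the main test. Fitted without the filter, NOTCH3 fell by 0.82 on the log2(FPKM + 1) scale (SE 0.07, limma adjusted p = 0.0119), where 6.43% of rows passed. With a pseudocount of 0.1 FPKM, a choice made after the data were seen, the difference was -2.25 (SE 0.24, limma adjusted p = 0.0137), and 6.76% of rows passed. The pseudocount of 1 FPKM is as large as the NOTCH3 level itself and understates its change. With the replicate number as a block, or with a single sample left out (other than shZNF148 replicate 2), the adjusted p rose to between 0.054 and 0.0821, while the difference stayed between -0.87 and -0.77.

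NOTCH2 (chr1:119911553-120100779, minus strand) was measured at 54.1, 57.2 and 53.9 FPKM in shCtr and at 60.1, 59.3 and 57.4 FPKM in shZNF148. Each shZNF148 sample exceeded each shCtr sample, but the log2 difference was small, 0.10 (SE 0.06, 95% interval -0.04 to 0.23), and did not pass (limma adjusted p = 0.283). A partial copy of this gene, NOTCH2NL, is nearly identical in sequence, so reads of the pair may have been divided between them. Singled out after its values were seen, NOTCH2NL was at 10.9, 15.3 and 11.1 FPKM in shCtr and 14.0, 18.3 and 14.1 FPKM in shZNF148 (limma adjusted p = 0.23). NOTCH1 (chr9:136494433-136546048, minus strand) was measured at 10.7, 11.3 and 11.5 FPKM in shCtr and at 11.7, 11.1 and 10.8 FPKM in shZNF148. Its groups overlapped throughout, with a log2 difference of 0.01 (SE 0.07, limma adjusted p = 0.954) and a 95% interval of the fold from 0.894 to 1.13.

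Set against the sum of the 3 receptors in each sample, NOTCH2 made up 82.1%, 82.3% and 81.3% in shCtr and 83.5%, 84.1% and 83.9% in shZNF148. NOTCH3 made up 1.75%, 1.43% and 1.31% in shCtr and 0.211%, 0.127% and 0.233% in shZNF148. The difference of means was 1.94 percentage points for NOTCH2 and -1.31 for NOTCH3, and neither pair of groups overlapped. With 3 samples against 3, the exact two-sided permutation test can go no lower than p = 0.1, which both reached (0.133 after adjustment over the 4 shares tested). The NOTCH1 share was 16.6% ± 0.647 in shCtr and 16.0% ± 0.246 in shZNF148, with overlapping groups (exact permutation p = 0.2). The receptor sum was 66.0, 69.5 and 66.2 FPKM in shCtr and 71.9, 70.5 and 68.3 FPKM in shZNF148. It was dominated by NOTCH2 in every sample. In bulk RNA, fewer cells that express a gene and less RNA per cell cannot be told apart.

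Neither ligand passed the test. JAG1 (chr20:10637684-10673999, minus strand), a Jagged ligand linked to aggressive breast cancers, was measured at 6.69, 4.83 and 6.19 FPKM in shCtr and at 5.63, 6.33 and 5.92 FPKM in shZNF148. The groups overlapped, and the log2 difference was 0.02 (SE 0.12, 95% interval -0.27 to 0.31, limma adjusted p = 0.922). JAG2 (chr14:105140982-105168824, minus strand), the second Jagged ligand, shares its row with the neighbouring gene NUDT14, so its values cannot be assigned to JAG2 alone. That row was at 22.4, 19.9 and 21.2 FPKM in shCtr and at 15.7, 19.0 and 19.6 FPKM in shZNF148. Every shZNF148 value lay below every shCtr value, with a log2 difference of -0.22 (SE 0.10, 95% interval -0.45 to 0.02, limma adjusted p = 0.178). JAG1 as a share of JAG1 plus the joined JAG2 row was 21.7% ± 1.90 in shCtr and 24.8% ± 1.58 in shZNF148, a difference of 3.10 percentage points without overlap (exact permutation p = 0.1, adjusted 0.133). The groups nearly met, at 23.0% in shCtr replicate 1 and 23.2% in shZNF148 replicate 3. JAG1 alone was at 101% of its shCtr mean and the joined row at 85.7%.

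The nuclear proteins showed no call in their main rows. RBPJ (chr4:26163455-26435131, plus strand), the DNA-binding partner of all Notch receptors, has 2 rows that the table does not tell apart by position. The higher row was at 34.7, 29.4 and 32.9 FPKM in shCtr and at 27.2, 18.1 and 30.9 FPKM in shZNF148. The groups overlapped, and shZNF148 replicate 2 was the lowest of the 6 samples (log2 difference -0.37, SE 0.19, limma adjusted p = 0.216). The lower row was at 7.18, 10.3 and 9.65 FPKM in shCtr and at 6.61, 6.06 and 0.864 FPKM in shZNF148, where replicate 3 was the lowest. That row did not pass either (log2 difference -1.10, SE 0.53, limma adjusted p = 0.192). Added together, the RBPJ rows came to 41.9, 39.7 and 42.5 FPKM in shCtr and to 33.8, 24.2 and 31.7 FPKM in shZNF148. This sum passed narrowly (log2 difference -0.47, SE 0.12, limma adjusted p = 0.0496), so the call for RBPJ depends on how its rows are treated. MAML2 (chr11:95976598-96343195, minus strand), a Mastermind coactivator, was at 15.5, 14.3 and 15.0 FPKM in shCtr and at 15.9, 17.7 and 15.4 FPKM in shZNF148. Its groups overlapped (log2 difference 0.12, SE 0.08, 95% interval -0.07 to 0.31, limma adjusted p = 0.325).

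Among the targets, HES4 fell, HES1 was higher in each knockdown sample without passing the test, and HEY1 was near the bottom of the range in both groups. Sequence is given for HES1 and HES4 because both carry the core word bound by RBPJ, TGGGAA, close to their start sites in RefSeq, although their RNA levels differed in opposite directions. Capitals mark that word in the 60 bases from 105 to 46 bases before each RefSeq start, written 5′ to 3′ on the gene's own strand (RefSeq, GRCh38.p14). The HES1 window is chr3:194136043-194136102 on the plus strand and the HES4 window is chr1:1000143-1000202 on the minus strand. GENCODE has the same start for HES1, but for HES4 it starts 75 bases further upstream, so that 30 of the 60 HES4 bases lie inside the GENCODE gene.
HES1: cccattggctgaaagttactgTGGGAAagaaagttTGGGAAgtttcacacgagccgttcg
HES4: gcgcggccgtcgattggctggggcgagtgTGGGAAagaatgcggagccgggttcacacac

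In the 300-base promoter windows (250 bases before the RefSeq start and 50 from it), TGGGAA was searched on both strands. HES1 held it 2 times, 84 and 70 bases before its start, and HES4 held it 1 time, 76 bases before its RefSeq start and 1 base before its GENCODE start. The longest run that both promoters share is TGTGGGAAAGAA, 12 bases, which begins 86 bases before the HES1 start and 78 bases before the HES4 start in RefSeq and stands in 8 of 35116 windows (0.0228%). Of the 10 members, 9 had a window, 13 windows in all, and among the others TGGGAA stood only in 1 of the 5 RBPJ windows. TGGGAA alone stood in 24.0% of all 35116 windows, and the longer word GTGGGAA, which contains it and was found in the same 3 members, in 6.25%. The GC-rich word CCCCTCCC, used for ZNF148, was found among the members in the JAG1 window, and in 14.6% of all windows. GC content was 59.0% in the HES1 window and 75.7% in the HES4 window, against a median of 58.7%. These matches describe letters and not binding.

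HES4 (gene at chr1:998962-1000172) was measured at 5.03, 4.48 and 6.61 FPKM in shCtr and at 2.62, 3.70 and 2.20 FPKM in shZNF148. All knockdown samples were below all control samples, and the mean was 52.9% of the control mean. HES4 fell by 0.74 on the log2(FPKM + 1) scale (SE 0.19, 95% interval -1.18 to -0.29, limma adjusted p = 0.0465). The call lies close to the threshold. It did not pass in a fit with a replicate block (adjusted p = 0.104), without the filter (0.0728), or when any sample other than shZNF148 replicate 2 was left out (0.084 to 0.142), and the difference kept its sign in each.

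HES1 (gene at chr3:194136148-194138732) was measured at 5.97, 7.53 and 4.07 FPKM in shCtr and at 8.60, 9.74 and 7.86 FPKM in shZNF148. The groups did not overlap, and the shCtr samples were the more spread. The mean was 149% of the control mean, with a log2 difference of 0.53 (SE 0.19, 95% interval 0.07 to 0.99), and it did not pass after adjustment (limma adjusted p = 0.108, and 0.074 to 0.223 over 17 other settings). HEY1, which encodes a repressor related to the HES proteins, was at 0.161, 0.246 and 0.255 FPKM in shCtr and at 0.237, 0.144 and 0.200 FPKM in shZNF148. It was under the filter and its groups overlapped (log2 difference without the filter -0.03, SE 0.05, limma adjusted p = 0.727).

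Of the 9 further targets listed, all but BHLHE40 were at most 3.66 FPKM. BHLHE40, a hypoxia-responsive repressor related to the HES family but not one of the classical Notch targets, was at 54.4, 55.5 and 51.4 FPKM in shCtr and 31.4, 28.5 and 36.1 FPKM in shZNF148. It fell without overlap (log2 difference -0.74, SE 0.09, limma adjusted p = 0.0118). Its relative BHLHE41 was at 2.70, 3.28 and 2.03 FPKM in shCtr and 3.66, 2.52 and 3.31 FPKM in shZNF148, with overlap (limma adjusted p = 0.471). The following 4 were picked after their values were seen. HEYL was at 1.26, 1.82 and 1.39 FPKM against 0.888, 0.949 and 0.641 FPKM (limma adjusted p = 0.0883), and NRARP, a feedback inhibitor of Notch, at 1.62, 1.75 and 1.37 FPKM against 1.19, 0.913 and 0.979 FPKM (limma adjusted p = 0.113). Neither pair of groups overlapped, as in 41.0% of all tested rows. HES6, which antagonises HES1, overlapped (limma adjusted p = 0.193), and HES7, at 1.15, 0.557 and 1.02 FPKM against 0.339, 0.0685 and 0.285 FPKM, was under the filter. Of the 9, 5 were tested and only BHLHE40 was called, against 13.6% of all tested rows. The 5 differences ran from -0.74 to 0.19 with a median of -0.40, against 0.006 over all tested rows, and nothing particular to the targets is read from so few.

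Beyond the members, a list of 70 pathway genes grouped by role held 54 that were tested. Of these, 5 were called (9.26%, against 13.6% of all tested rows), 4 lower and 1 higher, and the median difference was 0.02. The groups did not overlap in 26 of the 54 (48.1%, against 41.0% of all tested rows), 14 higher and 12 lower. Each role held at most 12 tested genes, so nothing particular to a role is read from its calls.

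**Figure D3:**
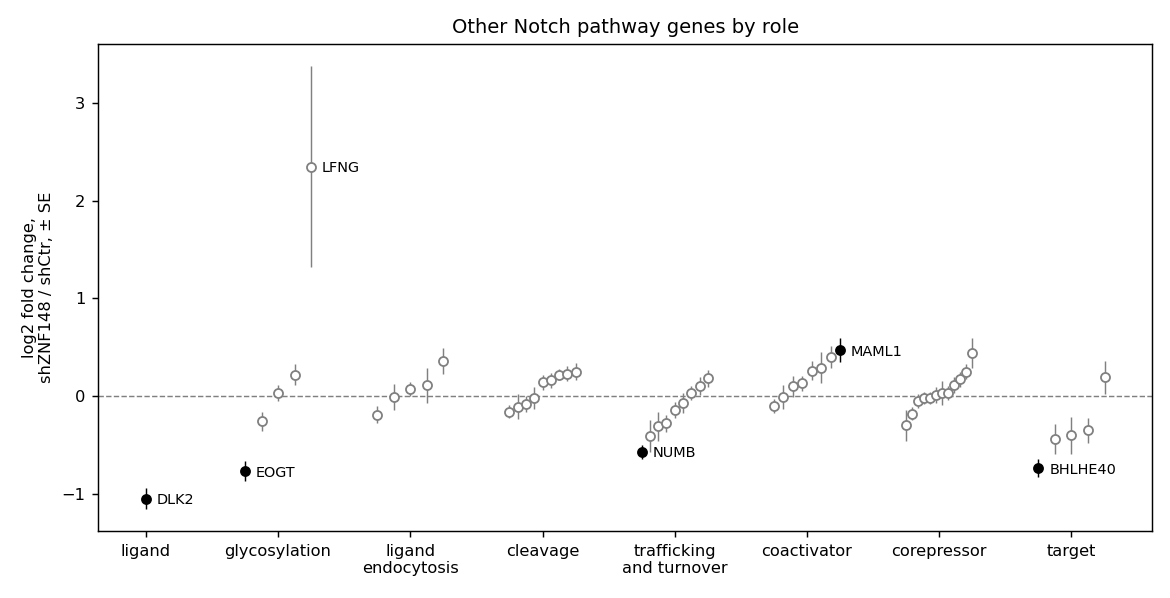
Log2 fold change (shZNF148 over shCtr, on the log2(FPKM + 1) scale) ± SE of the 54 tested pathway genes outside the members, arranged by role; filled points passed at an adjusted p under 0.05. DLK2, EOGT, NUMB and BHLHE40 lie between -1.05 and -0.57, MAML1 at 0.47, and LFNG at 2.35 with an SE of 1.03.

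On the signal-sending side, DLK2, a non-canonical relative of the Delta ligands, was at 13.5, 11.1 and 11.0 FPKM in shCtr and 5.19, 5.61 and 4.77 FPKM in shZNF148. It fell by 1.05 on the log2 scale (SE 0.11, limma adjusted p = 0.00931) and was the only one of the 6 further ligands to be tested. DNER had the next highest mean of the ligands (0.131 to 0.388 FPKM), and no other untested ligand exceeded 0.402 FPKM in any sample. None of the 5 ligand endocytosis genes tested was called, against 13.6% of all tested rows. The 5 included EPN1 (74.0 to 87.3 FPKM) and the ubiquitin ligase MIB2 (10.4 to 17.5 FPKM).

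Of the enzymes that put sugars on Notch receptors, EOGT (listed under its older name C3orf64), which adds O-linked GlcNAc, was at 7.11, 7.97 and 7.36 FPKM in shCtr and 4.48, 3.61 and 3.89 FPKM in shZNF148. It fell by 0.77 on the log2 scale (SE 0.10, limma adjusted p = 0.0118). POFUT1, which adds O-fucose, had overlapping groups (47.2 to 55.7 FPKM, limma adjusted p = 0.798). LFNG, a Fringe that extends that fucose, shares its row with the microRNA gene MIR4648. The row was at 5.51, 3.83 and 5.40 FPKM in shCtr and at 185, 12.9 and 9.23 FPKM in shZNF148. Each shZNF148 sample exceeded each shCtr sample, as in the 41.0% of all tested rows without overlap in either direction. Replicate 1 set the mean, and the row did not pass (log2 difference 2.35, SE 1.03, limma adjusted p = 0.163).

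In receptor processing, none of the 9 protease genes was called, against 13.6% of all tested rows. The groups did not overlap in 5 of the 9 (55.6%, against 41.0% of all tested rows), 4 higher and 1 lower. The 9 included NCSTN (81.5 to 107 FPKM) and APH1A (73.1 to 91.9 FPKM), both parts of gamma-secretase. Among genes of receptor trafficking, NUMB, an endocytic adaptor that antagonises Notch, was at 36.7, 36.9 and 36.5 FPKM in shCtr and 23.6, 23.7 and 26.2 FPKM in shZNF148. It fell by 0.57 on the log2 scale (SE 0.07, limma adjusted p = 0.0106), the 1 call of 9 tested (11.1%, against 13.6% of all tested rows). The ubiquitin ligase ITCH overlapped (29.2 to 32.9 FPKM). Without shCtr replicate 1 or without shCtr replicate 3, the calls of DLK2, EOGT, NUMB and BHLHE40 were lost (limma adjusted p from 0.0516 to 0.0756). BHLHE40 was also lost without shCtr replicate 2 (0.0502).

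In the nucleus, MAML1, a Mastermind relative of MAML2, was at 14.4, 13.0 and 15.6 FPKM in shCtr and 20.8, 22.9 and 17.3 FPKM in shZNF148. It rose by 0.47 on the log2 scale (SE 0.12, limma adjusted p = 0.0452), and passed in 8 of 17 other settings (0.102 with the replicate block). It was the 1 call of 8 coactivators tested (12.5%, against 13.6% of all tested rows). The 8 included SNW1 (47.4 to 56.7 FPKM) and CCNC (20.4 to 35.2 FPKM), both overlapping. MAML3, the third Mastermind gene, was under the filter, at 0.488, 0.404 and 0.449 FPKM in shCtr and 0.245, 0.160 and 0.243 FPKM in shZNF148, and was picked after its values were seen. In the fit without the filter MAML3 fell (log2 difference -0.25, SE 0.05, limma adjusted p = 0.0429), and MAML1 did not pass (limma adjusted p = 0.0649). With a pseudocount of 0.1 FPKM MAML3 did not pass (limma adjusted p = 0.0828). None of the 12 corepressors tested was called, against 13.6% of all tested rows. CTBP1 (50.7 to 56.1 FPKM) and TLE1, a Groucho protein (33.6 to 39.5 FPKM), were the most abundant and overlapped. The remaining receptor, NOTCH4, has 7 rows, each joined with GPSM3, and all were listed at 0 in all 6 samples.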

How the data were processed

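Total RNA of 3 shCtr and 3 shZNF148 samples was sequenced by the authors, who deposited 1 table of FPKM per gene. The submitters' processing notes name bcl2fastq 2.17.1.14, TopHat2 2.0.14, Cufflinks 2.2.1 and Cuffnorm 2.2.1 with the builds hg18 and hg19, without roles; the study's methods describe a count test on another quantification. The annotation is not given in the sources used here. Reads cannot be recovered from FPKM, so no count test was run.

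Groups were taken from the labels. Rows that averaged 1 FPKM or more across all 6 samples (48.9% of 24108) were tested with limma 3.58.1 (R 4.3.3) on log2(FPKM + 1), with a trended prior variance, and p-values were adjusted by Benjamini-Hochberg over all tested rows. The code was tested on simulated data. Shares were tested by exact permutation. Members, lists and tests were chosen with earlier results of these data known. Named were all members, the 2 pathway genes with the highest mean of each role, pathway genes with an adjusted p under 0.05, and ZNF148; genes outside this rule are said to be so where they are given, apart from markers. Relative depth came from the ratio of low FPKM values that recurred most often between samples. Other settings tried were another pseudocount, filter, scaling, variance model, a replicate block, summed rows and leaving out each sample. Coordinates are from GENCODE release 44 (GRCh38), not the build of the table, which holds none. Promoter sequences are from RefSeq (GRCh38.p14).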

Additional observations from a re-analysis of the deposited data

How the results depend on the processing

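Of the 8 members tested, 1 was called as reported, 0 with a mean of at least 5 FPKM (where HES4 was not tested), 0 with the replicate block, 2 with the rows of a symbol summed (HES4 and RBPJ), and 0 to 1 when a sample was left out. Of the other pathway genes, 5 were called as reported, 4 with the replicate block and 7 with quantile normalization. The 7 included the protease genes FURIN and PSENEN, both higher and both outside the naming rule. When a sample was left out, 0 to 6 were called, with 0 without shCtr replicate 1 or 3 and 3 without shCtr replicate 2. Over all rows, 1600 calls became 401 with the replicate block, 29 without shCtr replicate 1 and 22 without shCtr replicate 3. Taken over all tested rows, same-numbered samples did not deviate together (correlations 0.00104, -0.0881 and 0.0304), so the numbers were not taken as pairs. Single genes can differ from this. With the replicate block the SE fell from 0.19 to 0.12 for HES1 (limma adjusted p = 0.074). It fell from 0.19 to 0.13 for the higher RBPJ row (limma adjusted p = 0.136), and it rose for the other tested members. NOTCH1 turned from 0.01 to 0.00 with quantile normalization and ranged from -0.02 to 0.03 over left-out samples, and JAG1 from -0.10 to 0.10. The other members kept their direction in every setting tried; HEY1 without shZNF148 replicate 2 came to 0.00. For NOTCH3 and HEY1 the block and left-out-sample fits were added after seeing the data. FPKM gives no depth, so counting error at low levels is unknown.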
